A study of Danio rerio with 4 samples.

Results

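Zebrafish eyes were sampled 3 h after the optic nerve was severed, and their RNA was compared with that of sham-operated eyes on 3 of the 11 arrays of the series, the 3 whose names pair a 3 h injured with a 3 h sham pool. The fish were wildtype (zdr) animals bought from a pet store and kept on a light/dark cycle, and their age is not given in the sources used here. In the injured group the muscles around the eye and the nerve were cut, and in the sham group the muscles alone, so both groups carried the muscle wound. RNA came from the eye without lens and sclera and was pooled over several fish, and each array set 1 injured pool against 1 sham pool. The other arrays held injured against sham pools at 24 h (3 arrays) and 168 h (3 arrays), and unoperated left eyes of the same line against each other (2 arrays, which share 1 pool). Pools of 1 group count as biological replicates in the labels. The spread behind each p-value is that between arrays of the 3 times, moderated across probes. It holds differences between pools of fish together with those of labelling and hybridisation.

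The optic nerve is the bundle of axons of the retinal ganglion cells, the neurons that carry the output of the retina to the brain. Fish regrow these axons after a cut, and the ganglion cells turn on transcription factors such as atf3 and jun, and later the genes of growth, such as tubulins. The first hours after an injury are known for immediate early genes, which need no new protein to be transcribed, and for cytokine signalling. Ganglion cells are a small share of the cells of an eye, which also holds photoreceptors, interneurons, Müller glia, pigment epithelium, vessels and cornea. In pooled eye tissue, fewer cells of a type and less RNA per cell cannot be told apart.

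Each array carried 14067 zebrafish probes, 173 Arabidopsis probes and 544 empty spots. A probe was called detected in a channel when its foreground intensity exceeded the 95th percentile of the empty spots of that array. At 3 h this held for 17.2% to 44.8% of the zebrafish probes in Cy5 and 38.7% to 62.7% in Cy3, while 21.4% to 40.5% of the Arabidopsis probes, which match no zebrafish gene, were also above that limit in Cy3. Both channels of all 3 arrays were above it for 1909 probes (13.6%), of which 1908 had a usable spot on every array, and they covered 970 named genes. The tissue's own markers were among them: rho, the rod pigment, opn1sw1 and opn1sw2, the ultraviolet and blue cone pigments, rpe65a of the pigment epithelium and glula of the Müller glia were detected in all 6 channels. The ganglion cell factor isl2b was detected in 3 injured and 2 sham channels, whereas the growth gene gap43 was detected in none and the cone transducin gnat2 in 1 sham channel.

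Arrays 1 and 2 carried the injured pool in Cy3 and array 3 in Cy5 by their names, although by the labels it was in Cy5 on every array. The authors' deposited table of log2 values followed the array names at 3 h, with r = 0.745 across probes against the mean of the 3 ratios in that orientation and r = -0.383 against the plain mean of Cy5 over Cy3. All values below are log2 of injured over sham in the orientation of the array names, after loess normalisation within each array. In that orientation arrays 1 and 2 correlated across the detected probes at r = 0.50, and array 3 correlated with them at -0.45 and -0.51. Read as Cy5 over Cy3, every pair of 3 h arrays correlated positively, and so did each of them with both arrays of unoperated eyes (r = 0.28 to 0.39 for array 1 over all probes). With a dye effect estimated from the arrays of the other times removed, the oriented correlations lay between -0.05 and 0.03. These correlations run across probes, which share their arrays, and are given as a description.

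No probe changed between injured and sham eyes at 3 h by the test over all probes. In limma, with 1 injury coefficient per time and a dye effect fitted to the 9 injured-against-sham arrays, 0 of 14067 probes passed at an adjusted p of 0.05, and the smallest adjusted p was 0.9998. At an unadjusted p under 0.05 stood 630 probes, which is 4.48% of those tested; 324 (2.3%) lay above 0 and 306 (2.18%) below 0. At 24 and 168 h 5% and 7.83% had such a p. After adjustment in limma 0 of 14065 probes passed at 24 h and 0 of 14067 at 168 h, so the absence of calls was not particular to 3 h. The median standard error (SE) of a 3 h value was 0.34. In simulated data of this design, 50 probes were changed at each log2 size from 1 to 4, with noise independent between probes. The fit called 5 of 50 changed by 1, 42 of 50 changed by 2 and 50 of 50 changed by 3. So changes of 1 or less were mostly below what these arrays could call. Many changed probes ease the adjusted threshold, and in the real data atf3 at 24 h, at 2.01 ± 0.33, was not called. The simulation therefore cannot show that a change of 2 at 3 h would have been called.

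Agreement in direction between the 3 arrays was therefore described by counts. Of the 1908 detected probes, 165 (8.65%) were above 0 on all 3 arrays and 236 (12.4%) below 0. A further 838 (43.9%) had arrays 1 and 2 on one side and array 3, with the dyes exchanged, on the other; these are the probes that would agree if the dyes of the labels were used. Over all zebrafish probes 1314 of 14065 (9.34%) were above 0 and 1481 (10.5%) below 0 on all 3 arrays. At 24 h the same counts were 15.4% above and 15% below 0 among the probes detected at that time, and at 168 h 12.6% and 19%. None of these 3 h shares of probes exceeded what independent random signs on 3 arrays would give. The 24 and 168 h shares did, by little for the 12.6% at 168 h. The 3 h arrays were not independent, however: as oriented, arrays 1 and 2 correlated positively, and array 3 negatively with both. That reference therefore cannot decide whether a share is high or low, and no conclusion is drawn from it. Having 1 direction on all 3 arrays at 3 h is not by itself evidence that a probe changed. The genes described below for it are given as a description. The agreeing values were small: none of the detected probes exceeded 0.5 on all 3 arrays, and 5 (0.262%) lay below -0.5 on all 3. At 168 h 2% of the detected probes exceeded 0.5 and 1.59% lay below -0.5 on every array, and at 24 h 0.781% did so in each direction. The 5 at 3 h were the first and the second rpe65a probe described next, pdgfaa, mthfd2 and 1 probe without a gene name.

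The visual cycle gene rpe65a, which encodes the isomerase that makes 11-cis-retinol in the pigment epithelium, had the most negative fitted value of the 12 named genes that were below 0 on all 3 arrays and detected in all 6 channels. Its foreground intensity was 2577 in the injured and 4734 in the sham pool on array 1, 2329 and 14608 on array 2, and 3935 and 5159 on array 3. The sham pool was brighter on all 3 arrays, whichever dye it carried. After normalisation the log2 ratios were -0.95, -2.18 and -0.57, and the fitted value was -1.09 ± 0.40 (SE, 9 arrays), 2.13-fold lower, with an unadjusted p of 0.016 in limma and an adjusted p of 0.9998. A second probe gave -0.82, -2.03 and -0.84 (-1.12 ± 0.39) and the remaining probe 0.01, -1.05 and -0.53 (-0.56 ± 0.34). Array 2 held the largest difference for each probe, and without it the first probe stood at -0.76. Pools of unoperated eyes also differed in rpe65a: the first probe's log2 ratio was 0.52 and -0.85 on these arrays, and that of the second probe 0.85 and -1.71, so a pair of unoperated pools spanned a range that overlaps the injured arrays. Another gene of the visual cycle, the retinaldehyde-binding protein rlbp1b, stood at -1.20 and -1.38 on arrays 1 and 2 and at 0.21 on array 3. Between unoperated pools rlbp1b stood at 1.02 and -1.56. Of the 4 detected genes of the pigment epithelium and visual cycle list, rpe65a alone was below 0 on all arrays, beside 12.7% of all detected named genes. The transcription factor otx2b alone was above 0, beside 8.25%. Over the 18 genes of that list on the array 1 was below 0 and 3 above 0 on all arrays, with a median of 0.14. Of all named genes 10.7% were below and 9.12% above 0, so the list did not share the direction of rpe65a.

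**Figure D1:**
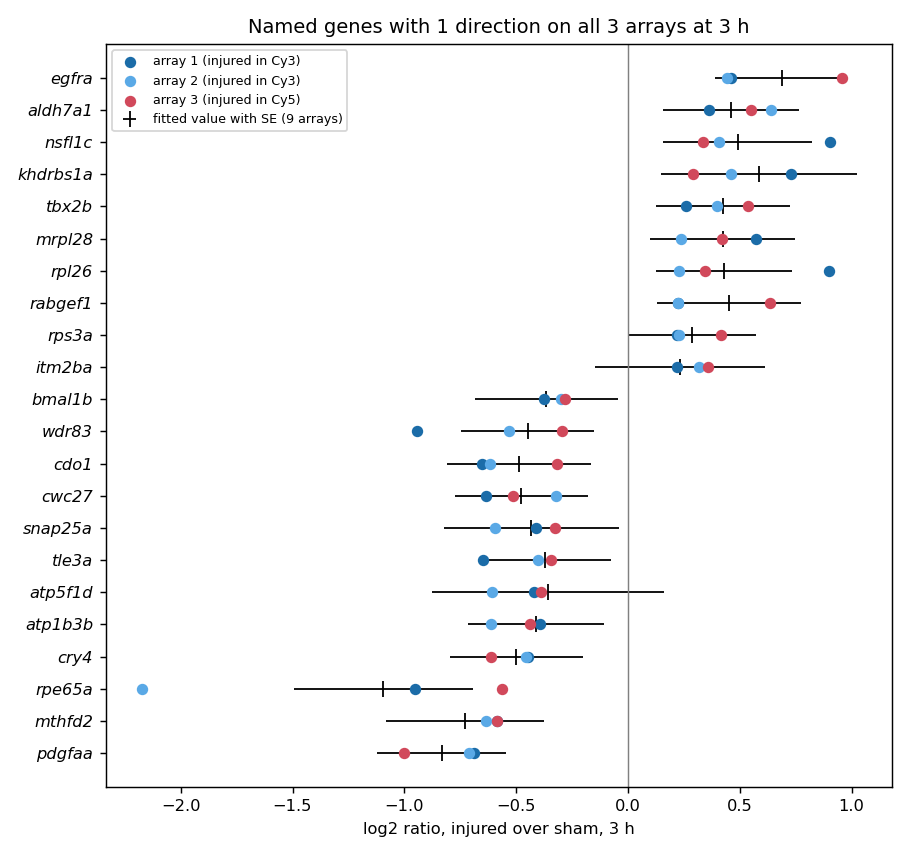
Log2 ratio of injured over sham at 3 h (horizontal axis) for 10 genes above and 12 below 0 on all 3 arrays, from those whose weakest array was farthest from 0 among probes detected in all 6 channels. Points are the 3 arrays, coloured by array, and black bars the fitted value with its SE. The points of pdgfaa and mthfd2 lie close together, whereas those of rpe65a run from -0.57 to -2.18.

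Other genes below 0 on all 3 arrays varied less between them. The growth factor ligand gene pdgfaa had ratios of -0.69, -0.71 and -1.001 (-0.83 ± 0.29), against 0.52 and -0.05 between unoperated pools. The mitochondrial folate enzyme gene mthfd2 had -0.59, -0.64 and -0.59 (-0.73 ± 0.35), against -0.89 and -0.19 between unoperated pools. Its probe was near the detection limit on array 1, at 546 in the injured and 582 in the sham pool, where the limits were 492 and 568. Before correction it stood at 647 against 789 on array 2 and 426 against 788 on array 3. The other mthfd2 probe, which was detected in 1 injured channel alone, gave mixed signs. After normalisation pdgfaa and the first mthfd2 probe thus had 3 ratios within 0.5 of each other, with the sham pool in either dye. A pair of genes named for the circadian clock list were below 0 throughout, the cryptochrome cry4 with -0.45, -0.46 and -0.61 and the clock activator bmal1b with -0.37, -0.30 and -0.28. The ratios of bmal1b between unoperated pools were 0.94 and -0.62, wider than its values at 3 h. The other detected clock genes, aanat2, csnk1e, cry1a, cry2 and cry3b, had mixed signs. Thus 2 of the 7 detected clock genes were below 0 on all arrays, beside 12.7% of all detected named genes. Over the 25 clock genes on the array 3 were below 0 and 4 above 0, beside 10.7% and 9.12% of all named genes. The list as a whole therefore had no common direction. Also below 0 on all arrays were the sodium pump subunit atp1b3b (-0.41 ± 0.30), the ATP synthase subunit atp5f1d (-0.36 ± 0.52), the Groucho family corepressor tle3a (-0.37 ± 0.29), the spliceosome factor cwc27 (-0.48 ± 0.30), the cysteine dioxygenase cdo1 (-0.49 ± 0.32) and the WD repeat gene wdr83 (-0.45 ± 0.30).

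The 10 genes named here as above 0 on all 3 arrays were led by egfra, the receptor of epidermal growth factor. Its ratios were 0.46, 0.44 and 0.96, its fitted value was 0.69 ± 0.30 (1.61-fold, unadjusted p = 0.036 in limma) and its ratios between unoperated pools were 0.36 and 0.30. The aldehyde dehydrogenase aldh7a1 had 0.36, 0.64 and 0.55, and the p97 cofactor nsfl1c 0.90, 0.41 and 0.33, against 0.65 and -1.63 between unoperated pools. The T-box factor tbx2b, which in zebrafish guides ultraviolet cones to their fate, had 0.26, 0.40 and 0.54. Ratios of these 4 genes were above 0 with the injured pool in either dye, but none stood farther than 0.5 from 0 on every array. The RNA-binding protein khdrbs1a (0.59 ± 0.44), the mitochondrial ribosomal protein mrpl28 (0.42 ± 0.32), the endosomal exchange factor rabgef1 (0.45 ± 0.32), the membrane protein itm2ba (0.23 ± 0.38; -0.05 without array 3) and the cytosolic ribosomal proteins rpl26 and rps3a made up the rest.

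Further probes of a gene shared its direction in part. Among genes with several detected probes, 165 of 300 further probes (55%) had the sign of the gene's brightest probe in the fit. Where the brightest probe was above 0 on all 3 arrays, 7 of 32 further probes were too, beside 8.65% of all detected probes, and 24 of 32 had a fitted value above 0. Where it was below 0, 3 of 26 were below 0 on all arrays, beside 12.4%, and 16 of 26 had a fitted value below 0. The synaptic gene snap25a had probes of opposite direction, with -0.41, -0.59 and -0.33 on one probe and 0.55, 0.81 and 0.01 on the other.

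Among probes detected in at least 1 injured and 1 sham channel, the smallest unadjusted p-values belonged to probes near the detection limit. The probe of the homeobox gene hoxc1a had an intensity of 699 against 403 on array 1 and 523 against 337 on array 2 (injured against sham), while on array 3 the injured channel, at 594, was the dimmer one before correction and normalisation. It was detected in the 3 injured and 1 sham channel. Its ratios after background correction and normalisation were 2.45, 1.504 and 0.99 (1.48 ± 0.31, unadjusted p = 0.00024 in limma). The spliceosome protein snrpa1 had 1.32, 3.21 and 1.24 (1.58 ± 0.44; 0.98 without array 3). Both genes were above 0 on every array, and their size moved with the background step: without background subtraction they stood at 0.45 and 0.92. The zinc transporter slc30a5 (1.26 ± 0.35) was above 0 on arrays 1 and 2 and below 0 on array 3. Below 0, the ephrin gene efna1a had -1.34, -0.14 and -1.57 (-1.16 ± 0.32; -0.39 without background subtraction) and the claudin cldng -1.21, -0.54 and -1.30 (-0.998 ± 0.32), each detected in 1 injured channel. The genes tmub2, coro1ca and nedd1, at -1.48 ± 0.42, -1.30 ± 0.42 and -1.58 ± 0.45, had at least 1 array above 0.

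Immediate early and injury response genes were mixed in direction, and none passed the test. Of 41 genes of that list on the array 10 were detected in all channels, and 1 of these, dusp1, was above 0 on all 3 arrays, against 8.25% of the 970 detected named genes, while none was below 0. The median of the 10 was 0.14, beside -0.01 over the 970. The stress factor atf3 had 0.45, -0.53 and 0.21 and a fitted value of 0.05 ± 0.33, with arrays on both sides of 0. For jun the ratios were 1.46, 0.88 and -0.13 (0.50 ± 0.31), with detection in 1 injured and 1 sham channel. The fos gene fosab stood at -0.16 ± 0.35 and the zinc finger factor egr1 at 0.21 ± 0.31, both with mixed signs.

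The cytokine feedback inhibitor socs3a was above 0 on all 3 arrays. Its intensities were 579 in the injured and 394 in the sham pool on array 1, 640 and 483 on array 2, and 1413 and 900 on array 3. The ratios were 0.67, 0.45 and 1.05 (0.69 ± 0.31, 1.62-fold, unadjusted p = 0.042 in limma; 0.31 without array 3), against -0.05 and -0.47 between unoperated pools. The probe was detected in the 3 injured channels and 1 sham channel. The phosphatase dusp1, which switches off MAP kinases, had 0.04, 0.69 and 0.33 (0.41 ± 0.31), and its other probe 0.22, 0.11 and 0.73. The matrix signalling gene ccn1 (0.65 ± 0.32) was above 0 on arrays 2 and 3, and the small Maf factor maff (-0.50 ± 0.33) was below 0 on them. Among the axon regeneration genes 1 of 8 detected, the adhesion gene cntn1a, had 1 direction, with -0.27, -0.18 and -0.33. That is 12.5% below 0 on all arrays, beside 12.7% of all detected named genes.

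Genes of the rod list lay below 0 more often than the detected genes as a whole, by small amounts. Of its 21 genes on the array 11 were detected in all channels. Of the 11, 6 were below 0 on all 3 arrays and none above 0, beside 12.7% of the 970 detected named genes below 0. The 6 included grk1b, a visual pigment kinase, gnb1a, a transducin subunit, and saga, an arrestin. The others were guca1aa, an activator of guanylate cyclase, prph2b, a disc rim protein, and pdcb, phosducin. Whether each member, such as grk1b, belongs to rods rather than cones was not checked. The list therefore cannot be set against the cone list by cell type. For grk1b the ratios were -0.62, -0.65 and -0.10 (-0.45 ± 0.33), for saga -0.91, -0.28 and -0.06 (-0.36 ± 0.34) and for guca1aa -0.87, -0.02 and -0.76 (-0.71 ± 0.35). Each had at least 1 array near 0. Rhodopsin itself, rho, had 0.10, 0.65 and -0.40 (0.05 ± 0.32), and its 3 other probes stood at -0.14, -0.19 and -0.31. The first rho probe was very bright, with intensities from 47258 to 59472 over the 6 channels. Whether the scanner saturated at this probe was not tested, so its fitted value near 0 is given as a description. The median of the 11 was -0.24, and their medians on the 3 arrays were -0.28, -0.26 and -0.16, against 0.23 and 0.00 on the unoperated arrays. Not 1 of the 21 reached an unadjusted p of 0.05 by limma. The count rested on the normalisation: with each array only centred on its median, 1 of the 11 was below 0 on all arrays, beside 7.42% of the detected named genes, and with loess per print tip 4 were.

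Cone genes were mixed. Of 16 detected cone genes 3 were below 0, beside 12.7% of all detected named genes, and 1, tbx2b, above 0 on all arrays, beside 8.25%. Their median was -0.04. The 3 were the opsin opn1sw1 (-0.55, -0.63 and -0.08; -0.32 ± 0.37), the cone opsin kinase grk7a and arl3l2. The cyclase activator guca1c stood at -0.22 ± 0.38, above 0 on arrays 1 and 2. Genes of ganglion cells and the inner retina had 4 of 10 detected members below 0 on all arrays, beside 12.7% of all detected named genes, and a median of -0.18: the neuronal intermediate filament gene inab, the vesicle fusion genes vamp2 and snap25a and the transcription factor tbr1b. With median centring 1 of the 10 was below 0 on all arrays, beside 7.42%, and with print-tip loess 2, beside 12.5%. The ganglion cell marker rbpms2b had -0.26, -0.05 and 0.09. Müller glia genes had 1 of 12, the receptor notch1a, below 0 on all arrays and a median of 0.00. Among axon guidance genes 3 of 6 detected were below 0 on all arrays, beside 12.7%, the ephrins efna3b (-0.38 ± 0.30) and efnb3b and the adhesion gene cntn1a, and 1 of 6 (16.7%), near its background of 12.9%, when the pixel median replaced the mean.

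**Figure D2:**
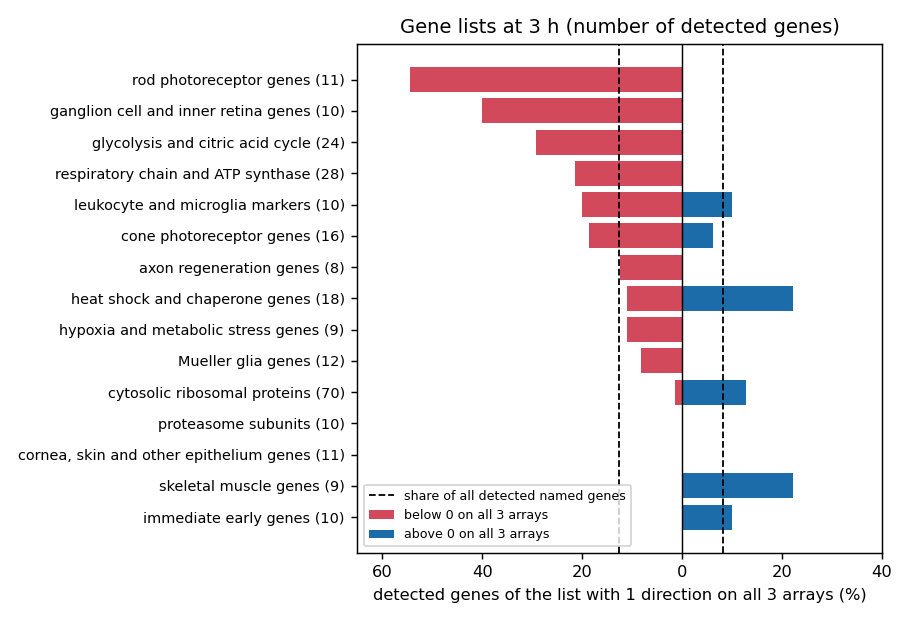
Share of the detected genes of each list that lay below 0 (red, to the left) or above 0 (blue, to the right) on all 3 arrays at 3 h, in percent, with the number of detected genes in brackets for lists with 8 or more. Dashed lines give the same shares over all 970 detected named genes, 12.7% and 8.25%; the rod list reaches 54.5% below 0 and the epithelium list has no gene in either direction.

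Genes of energy metabolism that were detected in all 6 channels and had 1 direction on all arrays were below 0, beside 12.7% of all detected named genes below 0. Detected or not, 2 of the 50 respiratory chain and ATP synthase genes on the array were above and 9 below 0. For glycolysis and the citric acid cycle these were 2 and 12 of 56, beside 9.12% above and 10.7% below 0 of all named genes. In the respiratory chain and ATP synthase list 6 of 28 detected genes (21.4%) were below 0 and none above 0 on all arrays, with a median of -0.09. The 6 included the complex I subunits ndufv1 (-0.53, -0.31 and -0.15), ndufb9 and ndufb7, the cytochrome oxidase subunit cox4i1 and atp5f1d, and sdhc, which the next list holds too. The complex III subunit uqcrb stood at -0.29 ± 0.29 with array 3 above 0. In glycolysis and the citric acid cycle 7 of 24 (29.2%) were below 0 and none above 0, with a median of -0.10, among them the hexokinases hk1 and hk2 (-0.44, -0.15 and -0.25 for hk2), the isocitrate dehydrogenase idh2 (-0.19, -0.38 and -0.18) and the malate dehydrogenase mdh1aa. The citric acid cycle genes dlst (0.38 ± 0.42) and idh3b (-0.36 ± 0.39) had mixed signs. With median centring these counts were 3 of 28 (10.7%) and 2 of 24 (8.33%), beside 7.42% of all detected named genes. Over arrays 2 and 3 they were 25% and 37.5% beside 19.8%, over arrays 1 and 3 35.7% and 37.5% beside 22.7%, and over arrays 1 and 2, which share a dye orientation, 39.3% and 37.5% beside 38.4%, so in that last pair neither list stood apart from its background.

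Genes for proteins of the cytosolic ribosome, the machine of translation, had 9 of 70 detected members (12.9%) above 0 on all arrays and 1, rps15a, below 0, beside 8.25% and 12.7% of all detected named genes, with a median of 0.05. Examples were rpl26 (0.90, 0.23 and 0.35) and rps3a (0.22, 0.23 and 0.42), while rpl5a (0.51 ± 0.37) and rps21 (0.36 ± 0.30) had mixed signs. Their medians on the 3 arrays were -0.18, -0.14 and 0.31, so the list as a whole was higher in Cy5 on each array, and with median centring 3 of 70 (4.29%) were above 0 throughout, beside 5.15%. Over arrays 2 and 3 alone 22 of 70 (31.4%) were above 0 beside 17.9%. Over arrays 1 and 3, and over arrays 1 and 2, 13 of 70 (18.6%) were, beside 17.4% and 25.7%, so the count above the background was not shared by all pairs of arrays. Among chaperones 4 of 18 were above 0 on all arrays, beside 8.25%, the heat shock proteins hspa5 and hspa8 and the chaperonin subunits cct5 and tcp1. Another 2, hsp90aa1.1 and cct6a, were below 0, beside 12.7%. The fitted values of the 18 lay 9 above and 9 below 0, with a median of 0.01. Over the 52 chaperones on the array 6 were above and 8 below 0 on all arrays, beside 9.12% and 10.7% of all named genes. Proteasome subunits had 0 of 10 in either direction, and of the 9 detected hypoxia and metabolic stress genes 1, gpx4b, was below 0. In the ribosomal, respiratory chain, glycolysis and proteasome lists 0 genes reached an unadjusted p of 0.05 by limma.

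Epithelial genes as a list had a higher Cy5 signal on each array at 3 h. Of 11 detected genes of cornea, skin and other epithelia none had 1 direction on all arrays, and their medians were -0.67, -0.68 and 1.43 on arrays 1, 2 and 3, which is a higher Cy5 signal each time. The keratin krt97 had -1.06, -1.92 and 3.29 (0.28 ± 0.74), krt5 0.14, -0.88 and 2.90 (0.85 ± 0.58) and the tight junction gene cldnb -1.10, -1.05 and 2.60 (0.23 ± 0.68). The keratins krt18a.1 (0.50 ± 0.52) and krt4 (0.01 ± 0.46) behaved alike, with arrays 1 and 2 below and array 3 above 0. Between unoperated pools krt97 stood at 1.55 and -1.25 and krt5 at 1.19 and -1.20, so the Cy5 channel was not always the brighter one for them. A difference between pools in the amount of epithelium and a dye effect cannot be told apart from 3 arrays.

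**Figure D3:**
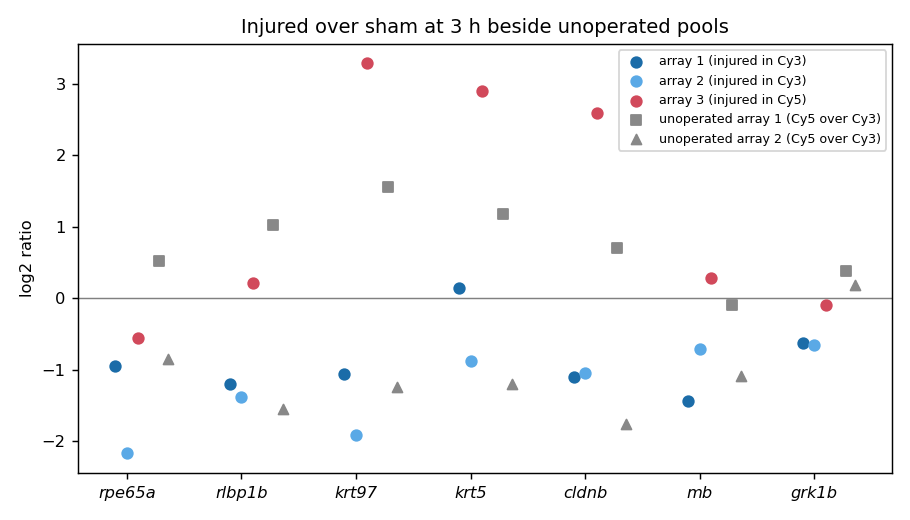
Log2 ratios (vertical axis) on the 3 arrays at 3 h (coloured points, injured over sham) and on the 2 arrays of unoperated eyes (grey, Cy5 over Cy3). The genes are rpe65a, rlbp1b, the epithelial genes krt97, krt5 and cldnb, the muscle gene mb, and grk1b of the rod list. The epithelial genes stand above 2.5 on array 3 and below or near 0 on arrays 1 and 2, and rpe65a lies below 0 on all 3.

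Of all detected named genes 8.25% were above and 12.7% below 0 on all arrays, and the counts of this paragraph stand beside these shares. Skeletal muscle genes, which could enter from the eye muscles cut in both operations, had 2 of 9 detected members above 0 on all arrays and none below 0. The 2 were the actin acta1b (0.77, 0.21 and 0.60, fitted 0.46 ± 0.31) and the myogenic factor myf5. Myoglobin, mb, had -1.44, -0.71 and 0.28, and the myosin light chain mylpfa 0.57, -0.37 and 1.01. The light chain myl1 had 2.69, 1.88 and -3.26, higher in Cy3 on each array, and it was also higher in Cy3 between unoperated pools (-2.53 and -1.17 as Cy5 over Cy3). Leukocyte and microglia markers had 2 of 10 below 0, coro1a and arpc1b, and 1 above 0, npsn, on all arrays, near the shares of all detected named genes. Their median was 0.07. The antigen presentation genes b2m and cd74b followed the pattern of the keratins, with -0.39, -1.07 and 1.48 and -0.76, -1.29 and 2.23. Red cell genes had 0 of 4 in either direction, with alpha globin hbaa1 at -0.07 ± 0.28. The part of other cell types in the values of rods or pigment epithelium was not tested.

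The lens had been removed, and most crystallin genes, which encode its structural proteins, were near the detection limit. The probe of crygm2d1 was detected in all 3 injured channels and no sham channel, the 1 named gene with that pattern, and no named gene had the reverse. Over all zebrafish probes 3 (0.021%) had that pattern and 2 (0.014%) the reverse, so it was about as rare in either direction. The next values are those of the crygm2d1 probe. Its ratios were 1.71, 2.15 and 0.91 (adjusted p = 0.9998 in limma). After correction and normalisation its injured mean stood 2.54-fold above a sham reference. That reference was, on each array, the higher of the probe's own signal and the lowest corrected signal of any probe detected in the sham channel. The value depends on the correction and is not a bound set by the detection limit. Before correction the intensities were 598 against 423, 486 against 296 and 435 against 331 (injured against sham). The sham limits on these arrays were 568, 484 and 342. For crygs2, detected in 2 injured and 2 sham channels, the ratios were 0.62, 3.53 and 0.75 (1.62 ± 0.49; 0.68 without array 2), and its other probe stood at -0.05 ± 0.43. The genes cryba1b (0.67 ± 0.32), crybb1 (0.82 ± 0.39), cryba4 (0.82 ± 0.38) and cryaa (0.16 ± 0.53) had mixed signs, with array 2 above 1 for each. Over the 17 lens genes on the array 4 were above 0 and none below 0 on all arrays, beside 9.12% and 10.7% of the 5097 named genes with a ratio on every array, and the median was 0.43 beside -0.00 over all named genes.

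The contrasts between times set the 3 h values against later ones. By limma 0 of 14065 probes differed between 3 and 24 h (590 at an unadjusted p under 0.05, 4.19%) and 0 of 14067 between 3 and 168 h (707, 5.03%). The smallest adjusted p-values were 0.9995 and 0.928. The stress factor atf3 was among the 5 genes with the smallest p against 24 h: it stood at 0.05 ± 0.33 at 3 h and at 2.01 ± 0.33 at 24 h, a difference of -1.96 ± 0.45. At 24 h all 3 arrays lay between 1.55 and 2.26, above every 3 h array. Also named against 24 h was the chromatin protein cbx1a (1.99 ± 0.46), with array 3 below 0 at 3 h. The homeobox gene pknox2 (1.54 ± 0.49), the kinase stk38a (1.27 ± 0.40) and the transcription factor sim1a (-1.54 ± 0.48) were near the detection limit. At 3 h pknox2 was detected in 2 injured and 2 sham channels, stk38a in 2 and 1, and sim1a in 1 and 1. At 24 h pknox2 and stk38a were each detected in 1 and 1, and sim1a in 2 and 1.

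Against 168 h, rpe65a and the tubulin gene tubb5 led. The rpe65a probe stood at -1.09 ± 0.40 at 3 h, 0.30 ± 0.40 at 24 h and 1.61 ± 0.40 at 168 h, and the difference between 3 and 168 h was -2.71 ± 0.56. Its other probes stood at 0.70 and 0.24 at 168 h. In the authors' deposited table the difference for the brightest probe was -0.42. All 3 arrays of that probe lay above 0 at 168 h, at 0.53, 2.53 and 1.36, and did not overlap those at 3 h. The tubulin gene tubb5, used by growing neurons, stood at 0.19 ± 0.33 at 3 h (-0.53, 0.87 and 0.14) and at 2.31 ± 0.33 at 168 h, a difference of -2.12 ± 0.46, whereas its other probes lay between -0.26 and 0.78 at 168 h. The growth factor fgf24 (-1.61 ± 0.45), rgp1 (-1.50 ± 0.41) and ubl7b (-1.66 ± 0.46) followed. The rgp1 probe was detected in 2 injured and 2 sham channels at 3 h, and in 2 and 1 at 168 h. For the rod list the median of detected genes was -0.24 at 3 h, -0.27 at 24 h and -1.21 at 168 h; the differences between these medians were not tested.

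**Figure D4:**
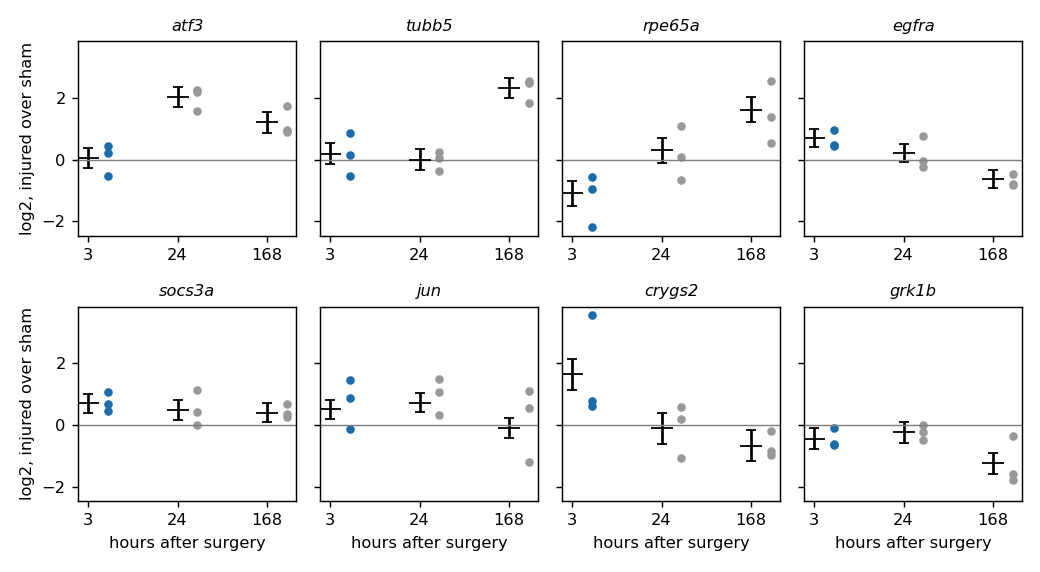
Log2 of injured over sham (vertical axis) at 3, 24 and 168 h after surgery (horizontal axis, equally spaced) for 8 genes: bars give the fitted value with its SE and points the single arrays (blue at 3 h, grey later). For atf3 the 3 h points lie around 0 and those at 24 h from 1.55 to 2.26, tubb5 stands near 0 at 3 and 24 h and at 2.31 at 168 h, and rpe65a lies below 0 at 3 h and above 0 at 168 h.

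In the authors' deposited table, 88.6% of the 1908 detected probes had the sign of the oriented mean at 3 h. That table gives -0.35 for the first rpe65a probe and -1.12 for the second, -0.56 for pdgfaa, 0.17 for egfra, 0.48 for socs3a and -0.43 for grk1b, each with the sign of the fit. The authors' deposited table gives the opposite sign for rho (-0.27), guca1c (0.05), idh3b (0.22), cldng (0.01) and myl1 (0.42). For egfra, the value at 168 h in the authors' deposited table was 0.45, above that at 3 h and opposite in sign to the fit, and for the first rpe65a probe it was 0.062.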

How the data were processed

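Per the labels' protocols, total RNA pooled from several fish was amplified and labelled with Cy3 or Cy5. The deposited scanner files hold unnormalised foreground and local background intensity values per spot, per the file headers. The authors also deposited log2 values, 1 for each spot at each time, from the same arrays; the submitters' processing notes name limma, and its scale and direction were read from the comparison in the report, while any centring is unknown here (the 3 h column's median was 0.01). Scanning settings are not given in the sources used here.

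Foreground means were corrected with normexp (offset 50) in limma 3.58.1 under R 4.3.3 and each array was normalised by loess, in which control, empty and bad spots had weight 0 (0 to 2 bad spots at 3 h). The 9 injured-against-sham arrays were fitted with 1 coefficient per time and a common dye term (5 residual and 9.99 prior degrees of freedom), and p-values were adjusted by Benjamini-Hochberg over all zebrafish probes. The fit was tested on simulated data (4 false calls). The number of arrays limits the precision. Probes were named through RefSeq records of GRCz12tu (7755), otherwise by the file's symbol, current (174), updated (468) or kept (30); 5640 had none. Provisional symbols left out, 8318 probes named 5098 genes, and in the lists the probe brightest over the 9 arrays stood for its gene.

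Named genes were the 12 per direction with the largest weakest-array ratio among probes detected in all 6 channels, the 5 per direction with the smallest p among probes detected on both sides, up to 4 per gene list, 5 for each difference between times, those detected on 1 side alone, and a fixed set of tissue and early response genes; some of these genes are not reported here or are given only in counts. Further list members with 1 direction are named to account for the counts and were picked after their values were seen. The members and the gene lists were chosen with earlier results of these data known. Alternatives were another background, normalisation, scaling, pixel summary, detection limit, dye term, set of arrays and each array left out.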

Additional observations from a re-analysis of the deposited data

Results flagged for a closer look

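For 7 of the genes that the naming rule chose and the text describes, every 3 h array lay on the opposite side of 0 from every array of a later time. Against 24 h this held for the kinase stk38a, above 0 at 3 h and below at 24 h, with a difference of 1.27 on the log2 scale. The stk38a probe was near the detection limit, detected in 2 injured and 1 sham channel at 3 h and in 1 and 1 at 24 h. On array 3 at 3 h its injured channel was the dimmer one before correction, at 553 against 665. Against 168 h the separation held for rpe65a, with a difference of -2.71, and for ubl7b, with -1.66, both below 0 at 3 h. In the other direction crygs2 (2.30), egfra (1.32), the leukocyte marker npsn (1.01) and tbx2b (0.76) were above 0 at 3 h and below 0 at 168 h. The test of these differences in limma passed for none of the 7 (adjusted p of 0.9995 for stk38a and 0.928 for the others). The genes were looked at because the text names them. The share of all probes with such a separation was not counted, so 7 cannot be called many or few. Of them, stk38a, rpe65a and ubl7b were named for a small p-value in limma of these same differences. Both egfra and tbx2b were named for 1 direction at 3 h, so the separation came in part from the choice of genes. Arrays 2 at 3 h and at 168 h hold the values of rpe65a farthest from 0. In the authors' deposited table the difference between 3 and 168 h was -0.27 for egfra, of opposite sign, and -0.42 for rpe65a.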

How the results depend on the processing

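The count of 0 probes at 3 h and at 3 h against 24 h held under every alternative run, with smallest adjusted p-values in limma from 0.445 upwards at 3 h. Against 168 h 1 probe passed with plain background subtraction (adjusted p = 0.0164), a probe of ndufs1 that was detected in no channel at 3 h. Probes above 0 on all arrays were 866 with plain subtraction, which leaves spots out. Among detected probes median centring gave 108 above and 128 below 0, and restricting the count to detected probes gave 165 and 236. Without each 3 h array in turn, agreement over the 2 left rose by construction to 2787 to 4176 probes above 0 and 2817 to 4242 below, or 344 to 496 and 381 to 743 among detected probes. The 14 differences between times given for single genes kept their sign under every alternative fitted; in the authors' deposited table, an alternative added after seeing the data, egfra reversed against 168 h (-0.27) and the other 13 kept their sign.

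Of the single genes, these reversed. With the 3 h arrays alone rho stood at -0.014 and cryaa at -0.16. In the authors' deposited table guca1c stood at 0.049, idh3b at 0.22, cldng at 0.011, rho at -0.27 and myl1 at 0.42. Without a dye term guca1c stood at 0.052, fgf24 at 0.14, idh3b at 0.22, krt4 at -0.094 and myl1 at 0.43. For krt4 the value was -0.011 with the control arrays in the fit, -0.10 with median centring and -0.13 with plain subtraction, which gave 0.053 for fgf24. With pixel medians krt18a.1 stood at -0.050, tubb5 at -0.038 and ubl7b at 0.20. Leaving out each 3 h array in turn gave ranges across 0: idh3b -0.995 to 0.18, krt4 -0.86 to 0.30, atf3 -0.16 to 0.33, rho -0.15 to 0.28, egr1 -0.019 to 0.35, myl1 -0.69 to 0.41, dlst -0.13 to 0.78, krt18a.1 -0.57 to 1.101, krt97 -1.89 to 1.12, mylpfa -0.64 to 0.79, tubb5 -0.19 to 0.51, cryaa -0.65 to 1.31, itm2ba -0.053 to 0.34, cldnb -1.65 to 0.78 and krt5 -0.60 to 1.52. For cd74b the range was -1.02 to 0.73, for hbaa1 -0.16 to 0.0068 and for fosab -0.64 to 0.20. The lower end of the keratins and cldnb came without array 3, the 1 array with the dyes exchanged. The cause was not tested. Each ratio already pairs the 1 injured with the 1 sham pool of its array, so no further pairing was added. Slide or scan day as a block was not run, since the sources used here give neither.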
